A study of Mus musculus with 116 samples.

Results

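Nucleolar ribosome assembly factors were examined in mouse oocytes and early embryos as a set of 53 listed gene symbols, of which 52 had a row among the 24028 symbols common to all 4 deposited expression tables. Members were found by exact symbol, rows that repeated a symbol were summed. They comprised 27 factors of the small ribosomal subunit, 15 measured factors of the large subunit, 8 proteins of small nucleolar ribonucleoproteins (snoRNPs), and the abundant nucleolar proteins Npm1 and Ncl. The listed large-subunit factor Noc2l was not analysed here.

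RNA was measured in 7 libraries, all from wild-type mice, with 8-week-old females induced to ovulate with PMSG and hCG. Of the late 2-cell libraries, the one labelled mTBE is called DRB-released here, because its column names DRB and the protocol has only a DMSO and a DRB arm: zygotes taken 23 h after hCG were held for 14 h in KSOM medium with 60 µM DRB, a reversible inhibitor of transcript elongation by RNA polymerase II, released on entering the 2-cell stage and cultured for 12 h more. The control late 2-cell library had the same handling in 0.1% DMSO. The other libraries were MII oocytes at 13 h after hCG, PN5 zygotes (the last pronuclear stage) at 30 h, early 2-cell embryos at 36 h, and 2 libraries of the inner cell mass (ICM) of the blastocyst at 98 h. Embryos came from C57BL/6N females mated with PWK males. The 5 oocyte, zygote and 2-cell libraries each held about 100 oocytes or embryos, with 1 library per group, and used total RNA after removal of ribosomal RNA, whereas the ICM libraries were made by Smart-seq2 from polyadenylated RNA.

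Ribosomes are built mainly in the nucleolus. RNA polymerase I makes a long precursor RNA, and the small-subunit processome assembles on it with the U3 snoRNP and its protein modules UtpA, UtpB and Mpp10, while another set of factors matures the large subunit. Box C/D and box H/ACA snoRNPs guide methylation and pseudouridylation of ribosomal RNA. In the mouse, the oocyte supplies stored messenger RNA and ribosomes, transcription by the embryo rises strongly in the 2-cell stage, and the compact nucleolus precursor bodies of the zygote turn into working nucleoli as the embryo starts to make ribosomal RNA. Many of the roles given below were first established in budding yeast.

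Levels are FPKM, fragment counts corrected for the length of the transcript and for the number of mapped fragments in the library. Differences are in log2(FPKM + 1), which understates the fold of genes with low levels. By the size rule, a gene is higher or lower when this difference reaches 1, about 2-fold. With 1 library per total RNA group no test could be made, so these differences stand without replication, and the read depth is not known. Only the PN5 and late 2-cell values come from a common table, and the MII, early 2-cell and ICM tables were normalized separately. The 12 oocyte markers summed to 3601 FPKM in the DRB-released library and 2825 FPKM in the control. The 14 measured 2-cell markers summed to 258 FPKM in the DRB-released library and 541 FPKM in the control, and all 14 were at 1 FPKM or more in the DRB-released library, against 13 in the control. The ICM libraries held all 10 inner cell mass markers at 1 FPKM or more, with sums of 762 and 605 FPKM, but also all 8 trophectoderm markers, with sums of 1829 and 1561 FPKM. In these bulk libraries, less RNA per cell cannot be told apart from fewer cells that hold it.

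Across the stages, the FPKM of the assembly factors was lowest in the early 2-cell library, which was itself low over all genes. The median member stood at 23.9 FPKM in MII, 27.9 FPKM in PN5, 7.06 FPKM in early 2-cell and 23.8 FPKM in late 2-cell control embryos. Over all genes at 1 FPKM or more in a library, the median was 11.0 FPKM in MII, 12.0 in PN5, 6.69 in early 2-cell and 8.92 in late 2-cell control embryos. As a share of the library's FPKM total, the members made up 0.561% in MII, 0.538% in PN5, 0.393% in early 2-cell and 0.419% in late 2-cell control embryos, so by this measure the last 2 were close. Of these 4 libraries, early 2-cell held the lowest level of 38 members and the highest of 0. PN5 held the highest level of 21 members, the control late 2-cell library that of 24 and MII that of 7. These counts of highest and lowest levels were not made over all genes, so they have no background beside them. The summed level of the members was 801 FPKM in the DRB-released library, or 0.224% of its FPKM total, and 1468 FPKM in the control, or 0.419%.

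**Figure D1:**
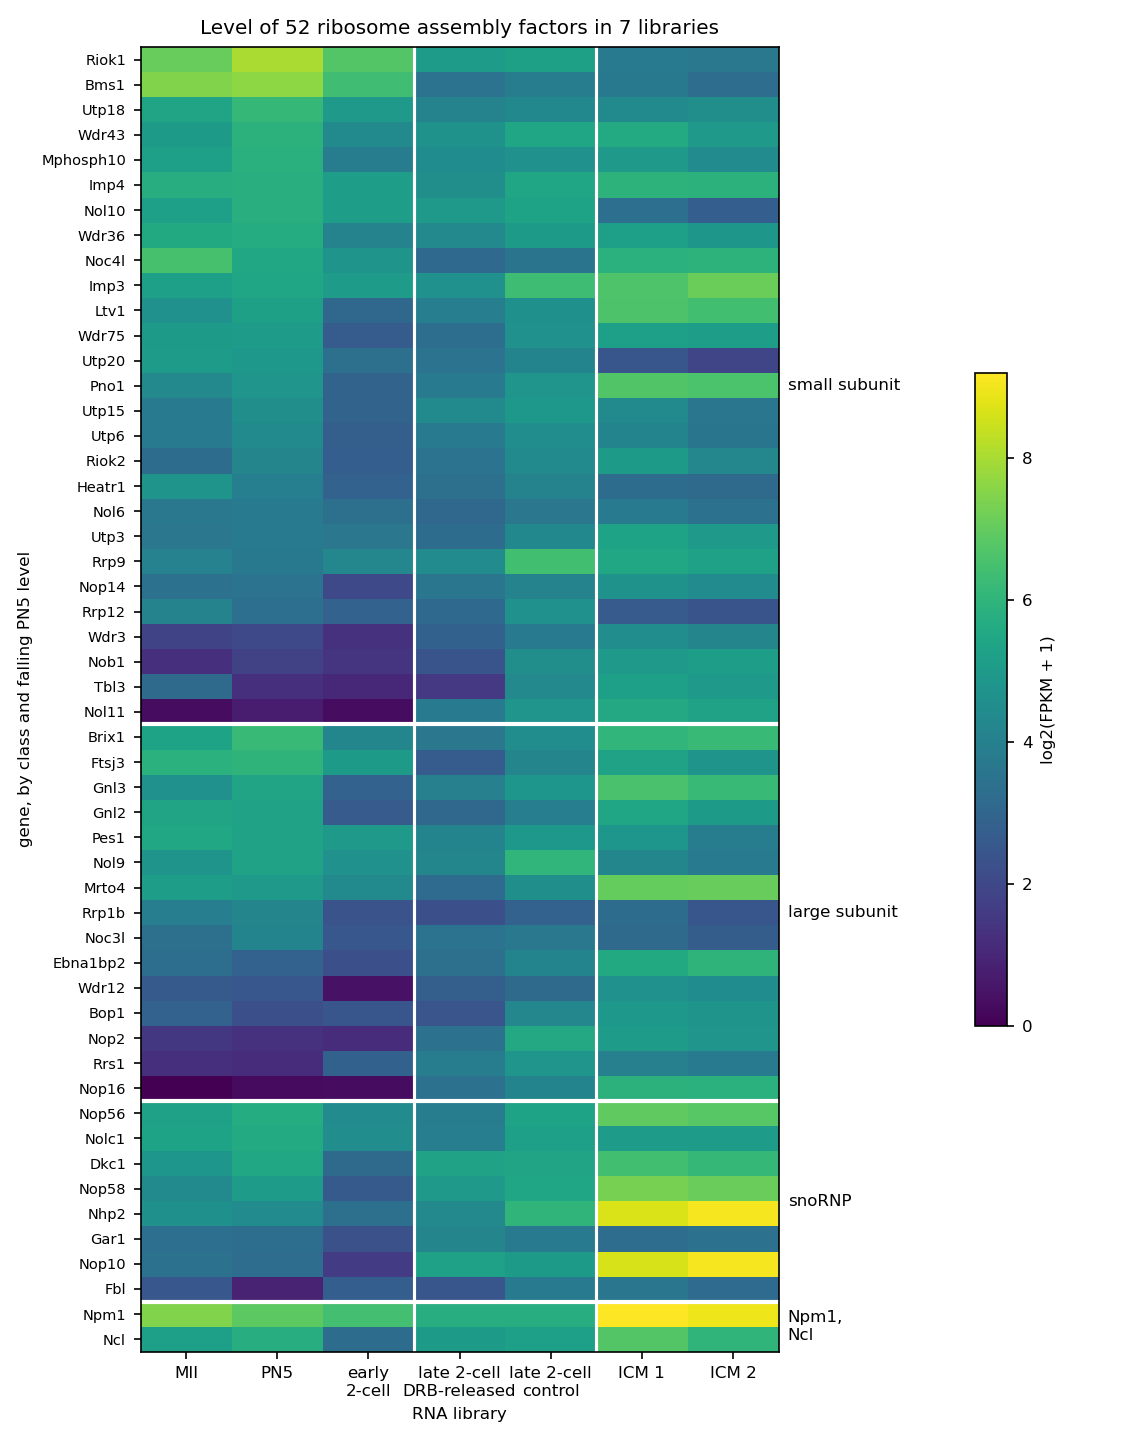
Level of each of the 52 measured assembly factors (rows, grouped by class) in the 7 RNA libraries (columns), as log2(FPKM + 1). Riok1 and Bms1 are bright from MII to early 2-cell and darker later, whereas Nol11, Nop2 and Nop16 are dark until early 2-cell and brighter in both late 2-cell libraries.

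A first group of members was abundant in the oocyte and lower after the early 2-cell stage. Bms1, a GTPase of the small-subunit processome, was at 174 FPKM in MII, 196 in PN5, 83.1 in early 2-cell, 10.4 in DRB-released late 2-cell, 13.9 in control late 2-cell, and 12.2 and 8.86 in the ICM libraries. Riok1, an atypical protein kinase of late small-subunit maturation, was at 132 FPKM in MII, 259 in PN5, 105 in early 2-cell, 32.9 in DRB-released late 2-cell, 36.8 in control late 2-cell, and 13.3 and 12.0 in the ICM libraries. Both were thus high in the oocyte, zygote and early 2-cell libraries and lower in each of the later ones. Riok1 was still above the members' median at late 2-cell, which was 13.0 FPKM in the DRB-released library and 23.8 FPKM in the control.

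The opposite pattern was that of members nearly absent before the late 2-cell stage. Nop2, the methyltransferase that modifies the large ribosomal RNA, was at 1.84 FPKM in MII, 1.46 in PN5, 1.27 in early 2-cell, 9.68 in DRB-released late 2-cell, 46.2 in control late 2-cell, and 32.9 and 26.9 in the ICM libraries. Nob1, the endonuclease that makes the final cut at the end of the small-subunit ribosomal RNA, was at 1.39 FPKM in MII, 2.50 in PN5, 1.65 in early 2-cell, 4.29 in DRB-released late 2-cell, 22.4 in control late 2-cell, and 29.5 and 33.9 in the ICM libraries. Rrp9, a protein of the U3 snoRNP, was at 15.9 FPKM in MII, 12.1 in PN5, 18.3 in early 2-cell, 20.6 in DRB-released late 2-cell, 84.5 in control late 2-cell, and 43.8 and 37.3 in the ICM libraries. Nop2 and Nob1 stayed below 3 FPKM until early 2-cell, whereas Rrp9 was already present in the oocyte, and all 3 had their highest value of the 5 total RNA libraries in the control late 2-cell library.

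The promoters of these 5 genes are shown because they belong to members with opposite courses over the same stages. Each run gives the 250 bases before the RefSeq start of the gene in GRCm38.p6, read 5′ to 3′ on the gene's strand, at chr6:125131633-125131882 for Nop2 (plus strand), chr8:107425039-107425288 for Nob1 (minus strand), chr9:106477059-106477308 for Rrp9 (plus strand), chr6:118419418-118419667 for Bms1 (minus strand) and chr13:38036739-38036988 for Riok1 (plus strand). Capitals mark CACGTG, the E-box core bound by Myc-type factors, and CCGGAAG, a core bound by ETS-type factors, or its reverse complement.
Nop2: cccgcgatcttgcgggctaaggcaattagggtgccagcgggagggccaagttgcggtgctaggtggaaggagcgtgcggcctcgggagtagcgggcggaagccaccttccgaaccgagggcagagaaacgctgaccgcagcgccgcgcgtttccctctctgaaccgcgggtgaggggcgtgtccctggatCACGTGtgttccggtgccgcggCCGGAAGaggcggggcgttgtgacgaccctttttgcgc
Nob1: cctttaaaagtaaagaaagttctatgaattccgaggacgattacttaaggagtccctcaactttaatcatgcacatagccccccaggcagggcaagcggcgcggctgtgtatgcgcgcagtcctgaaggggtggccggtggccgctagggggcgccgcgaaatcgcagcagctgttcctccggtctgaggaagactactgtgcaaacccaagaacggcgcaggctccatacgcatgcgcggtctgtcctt
Rrp9: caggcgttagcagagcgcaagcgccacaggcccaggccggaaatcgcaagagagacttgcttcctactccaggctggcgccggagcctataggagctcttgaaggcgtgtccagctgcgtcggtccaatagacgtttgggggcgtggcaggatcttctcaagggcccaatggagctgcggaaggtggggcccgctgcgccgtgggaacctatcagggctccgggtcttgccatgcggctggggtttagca
Bms1: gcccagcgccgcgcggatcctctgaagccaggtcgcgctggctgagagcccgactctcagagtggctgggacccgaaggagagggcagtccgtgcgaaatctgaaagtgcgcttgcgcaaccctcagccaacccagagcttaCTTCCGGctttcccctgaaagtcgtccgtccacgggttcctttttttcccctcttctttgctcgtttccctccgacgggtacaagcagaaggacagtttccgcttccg
Riok1: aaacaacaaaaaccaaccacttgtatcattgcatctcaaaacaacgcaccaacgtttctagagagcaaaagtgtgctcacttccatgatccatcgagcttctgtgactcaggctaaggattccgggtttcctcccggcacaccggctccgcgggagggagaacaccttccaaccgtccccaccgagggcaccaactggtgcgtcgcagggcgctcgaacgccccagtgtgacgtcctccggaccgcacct
Nop2 holds both motifs, Bms1 holds CCGGAAG as its reverse complement, and the letters of neither are in the windows of Nob1, Rrp9 and Riok1. Searched on both strands of the 250 bases before the start, CCGGAAG was in 12 of 42 measured members with a RefSeq entry, or 28.6%. It was in 14.4% of 10317 measured genes with an entry and in 6.91% of all 32851 windows. The 12 members were Bms1, Brix1, Gar1, Heatr1, Ltv1, Mphosph10, Nhp2, Nol10, Nolc1, Nop2, Utp18 and Utp3, and they included both Bms1 and Nop2. CACGTG was in 4 of the 42 members, or 9.52%, against 9.83% of the measured genes and 6.02% of all windows. For CACGTG the members' share was close to that of the measured genes. AAGATGGC, the core of the YY1 motif, was in 2 members, or 4.76%, against 2.32% of the measured genes and 1.56% of all windows. CCAAT was in 15 members, or 35.7%, against 41.1% of the measured genes and 33.8% of all windows. GGGCGG, the Sp1 core, was in 25 members, or 59.5%, against 62.1% of the measured genes and 32.7% of all windows. These matches describe letters only, and no motif of the 5 contains another.

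The comparison of DRB-released with control late 2-cell embryos asks how a block of transcription during the first hours of genome activation leaves the embryo 12 h after release. By the size rule, 17 of 52 members were lower and 0 were higher in the DRB-released library. Over all 13726 genes measured, 9.99% were lower and 5.57% were higher. The median difference of the members was -0.75, against -0.05 over all genes. In the DRB-released library 49 of the 52 members lay below their control level, compared with 53.4% of all genes. The 3 members that did not were Npm1, Gar1 and Nop10.

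The only replicate pair, the ICM libraries, gives a scale for library-to-library spread, although those libraries were made by another method. Between them 0 of 52 members were higher or lower by the size rule, against 2.31% and 2.79% of 9983 genes. The largest member difference was 0.94 in size, for Pes1, and the median was 0.28. Of the members, 18 lay further below control in the DRB-released library than that largest ICM difference, and 0 lay further above. Of all 13726 genes, 11.0% lay at or below -0.95 in the DRB comparison and 93.8% at or below 0.95.

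**Figure D2:**
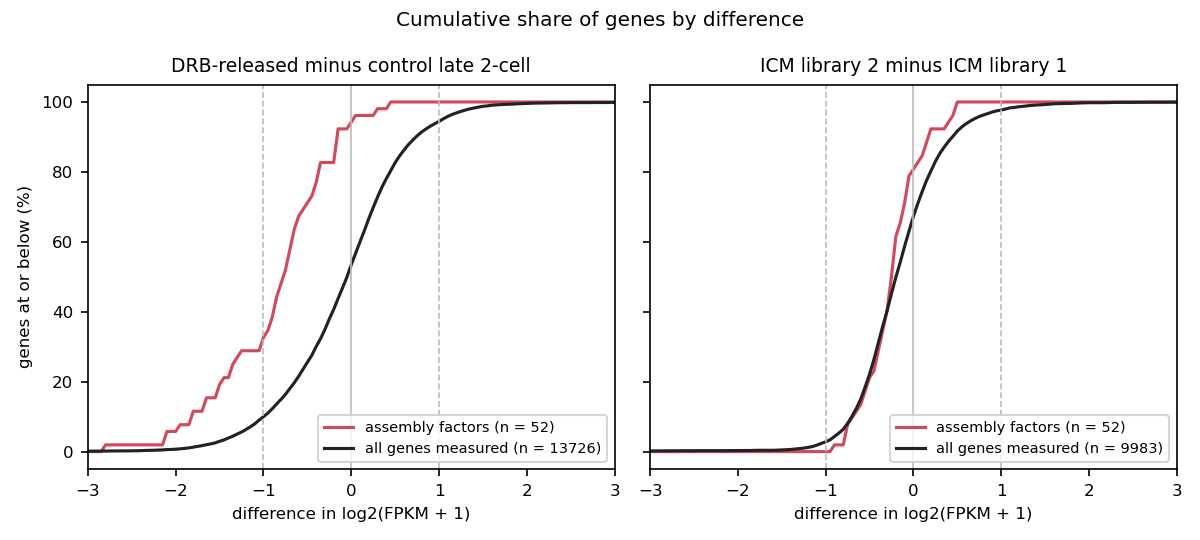
Cumulative share of genes (percent) at or below each difference in log2(FPKM + 1), for the 52 assembly factors and all measured genes, in DRB-released minus control late 2-cell embryos (left) and between the 2 ICM libraries (right). Dashed lines mark a difference of 1 in either direction. On the left the factors lie to the left of all genes, with medians of -0.75 and -0.05. On the right no factor passes a dashed line.

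Among the small-subunit factors, 8 of 27 were lower in the DRB-released library, against 9.99% of all genes. The 27 factors had a median difference of -0.71 and a range of -2.83 to -0.16. Tbl3, a UtpB protein with WD repeats, had the largest difference at -2.83: it was at 1.87 FPKM in the DRB-released library, against 19.4 FPKM in the control, with 8.05 FPKM in MII, 1.40 in PN5, 1.04 in early 2-cell and 35.8 and 30.3 in the ICM libraries. Its DRB-released level was close to that of the zygote and early 2-cell embryo. Nob1 and Rrp9, whose values are given above, differed by -2.15 and -1.98. Imp3, of the Mpp10 module that pairs U3 with the precursor RNA, was at 24.4 FPKM in the DRB-released library, against 79.9 FPKM in the control, a difference of -1.67. Its other values were 36.1 FPKM in MII, 41.4 in PN5, 33.2 in early 2-cell, and 99.7 and 140.0 in ICM. The DRB-released library thus held less Imp3 than any of the other libraries.

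The other small-subunit factors that were lower by the size rule were Rrp12, an export factor of pre-ribosomes, Utp3, a processome protein, and the UtpA proteins Wdr75 and Nol11. Rrp12 was at 7.75 FPKM in the DRB-released library, against 24.3 FPKM in the control, and Wdr75 at 9.11 FPKM in the DRB-released library, against 24.2 FPKM in the control. Utp3 was at 8.60 FPKM in the DRB-released library, against 18.9 FPKM in the control, and Nol11 at 12.8 FPKM in the DRB-released library, against 26.8 FPKM in the control. Utp3 and Nol11 were near the edge, at differences of -1.05 and -1.01, and just outside it were Pno1 at -0.97 and Wdr3 at -0.92. By module, the median difference was -0.72 over the 5 UtpA members, -0.67 over the 5 UtpB members, -0.89 over the 3 Mpp10 members, -0.87 over the 5 late small-subunit factors and -0.47 over the other 6 processome members. Members of a single module covered a wide range. Within UtpB, Tbl3 lay at -2.83 and Utp18 at -0.17, and within the Mpp10 module Imp3 lay at -1.67, Imp4 at -0.89 and Mphosph10 at -0.17.

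At the other end of the small-subunit class, Riok1 and Utp18 differed least. Utp18, which in yeast recruits the exosome helper Mtr4 to the processome, was at 16.5 FPKM in the DRB-released library and 18.6 FPKM in the control, with 40.7 FPKM in MII, 69.6 in PN5, 30.5 in early 2-cell and 19.5 and 22.5 in ICM. Riok1 differed by -0.16, and Bms1 by -0.38. The remaining small-subunit factors (Nop14, Imp4, Utp6, Utp15, Utp20, Wdr36, Wdr43, Riok2, Nol6, Nol10, Noc4l, Ltv1 and Heatr1) lay between -0.89 for Imp4 and -0.37 for Nol10.

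**Figure D3:**
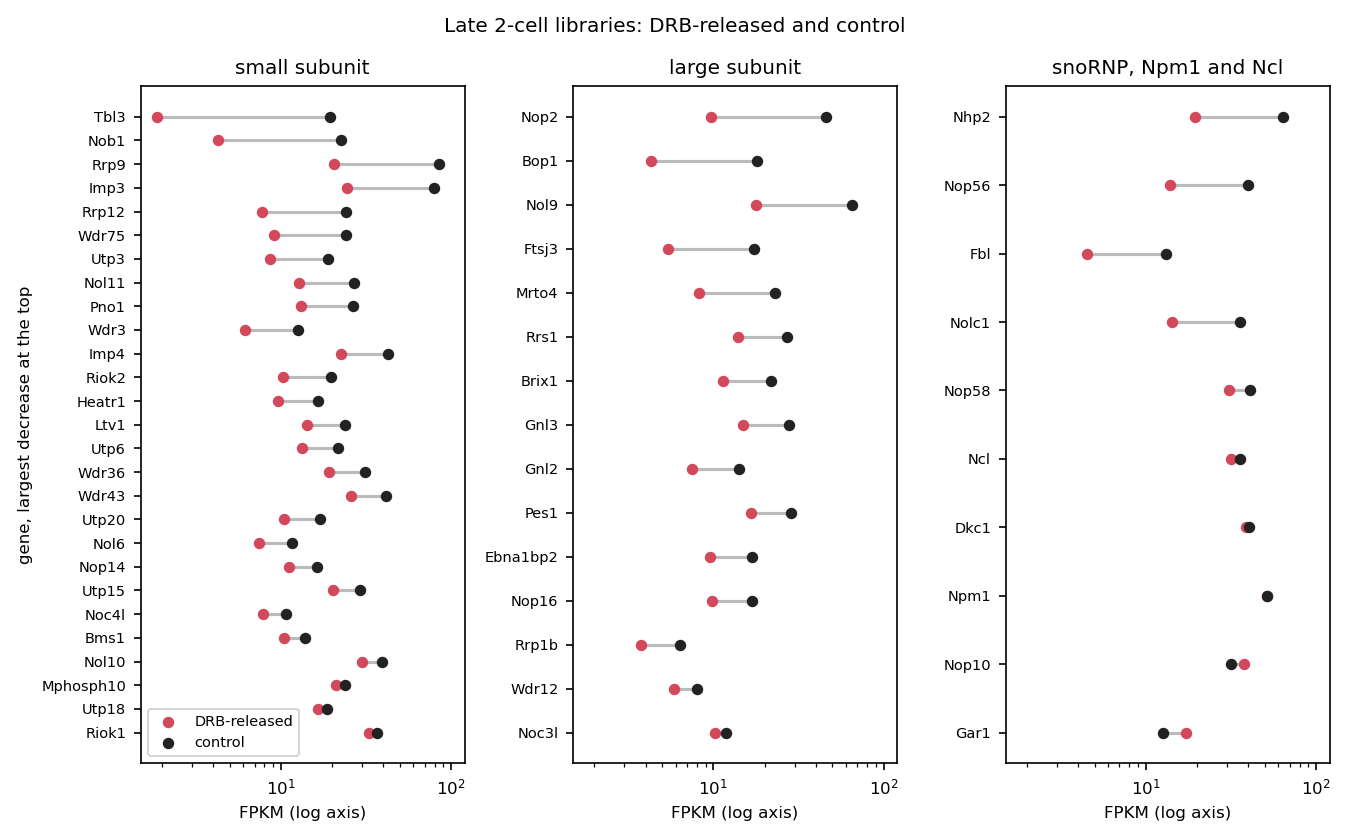
FPKM of each measured assembly factor in the DRB-released library (red) and the control late 2-cell library (black), on a log axis, by class, with the largest decrease at the top. All 27 small-subunit and all 15 large-subunit factors have the red point to the left of the black one, whereas Gar1 and Nop10 have it to the right.

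Among the large-subunit factors, 5 of 15 were lower in the DRB-released library, against 9.99% of all genes. The median difference of the 15 factors was -0.84. Nop2 differed by -2.14. Bop1, which with Pes1 and Wdr12 forms the PeBoW complex needed for large-subunit maturation, was at 4.32 FPKM in the DRB-released library, against 18.1 FPKM in the control, with 6.42 FPKM in MII, 3.73 in PN5, 4.45 in early 2-cell and 29.4 and 26.2 in ICM. Its partners differed less, Pes1 by -0.76 and Wdr12 by -0.39. Nol9, a polynucleotide kinase that acts on the internal spacer of the precursor RNA, was at 17.7 FPKM in the DRB-released library, against 65.1 FPKM in the control, with 26.1 FPKM in MII, 38.2 in PN5, 23.9 in early 2-cell and 17.6 and 12.9 in ICM. Control late 2-cell embryos held the highest Nol9 level of the 7 libraries. Ftsj3, a ribosomal RNA methyltransferase relative, was at 5.44 FPKM in the DRB-released library, against 17.3 FPKM in the control, with 58.0 FPKM in MII, 62.7 in PN5, 31.1 in early 2-cell and 38.5 and 26.0 in ICM. It was high in the oocyte as well, so that the DRB-released library held the lowest Ftsj3 level of the 7. Mrto4, which in yeast holds the place of a stalk protein on the immature subunit, was at 8.27 FPKM in the DRB-released library, against 23.1 FPKM in the control, with 34.7 FPKM in MII, 30.5 in PN5, 19.8 in early 2-cell and 129.8 and 131 in ICM.

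Noc3l and Nop16 had the smallest differences of the large-subunit factors at 10 FPKM or more in either late 2-cell library. Noc3l, a partner of the early large-subunit particle, was at 10.3 FPKM in the DRB-released library and 11.8 FPKM in the control, with 9.54 FPKM in MII, 16.8 in PN5, 4.66 in early 2-cell and 8.03 and 5.53 in ICM. Nop16, a factor of early large-subunit particles, was listed at 0 in MII, at 0.21 FPKM in PN5 and 0.23 in early 2-cell, then at 9.87 FPKM in the DRB-released library against 16.8 FPKM in the control, and at 59.7 and 57.3 FPKM in ICM. Its level was therefore far above that of every earlier stage in both late 2-cell libraries. Rrs1, Rrp1b, Gnl2, Gnl3, Brix1 and Ebna1bp2 had differences between -0.91 for Rrs1 and -0.63 for Rrp1b. Gnl3, the GTPase also called nucleostemin, was at 15.0 FPKM in the DRB-released library, against 27.6 FPKM in the control, with 24.5 FPKM in MII, 40.0 in PN5, 6.40 in early 2-cell and 92.9 and 74.6 in ICM.

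Of the snoRNP proteins, 4 of 8 were lower in the DRB-released library, against 9.99% of all genes: Nhp2, Nop56, Fbl and Nolc1. The 3 box C/D proteins had a median difference of -1.37 and a range of -1.46 to -0.41, and the 4 box H/ACA proteins a median of 0.10 and a range of -1.68 to 0.42, so the ranges overlap. Fbl, the methyltransferase of box C/D particles, was at 4.49 FPKM in the DRB-released library, against 13.2 FPKM in the control, with 4.70 FPKM in MII, 0.90 in PN5, 5.66 in early 2-cell and 11.3 and 8.33 in ICM. Nop56, a core box C/D protein, was at 13.8 FPKM in the DRB-released library, against 39.8 FPKM in the control, with 37.2 FPKM in MII, 51.5 in PN5, 20.7 in early 2-cell and 122 and 111 in ICM. Its paralog and partner Nop58 differed less: it was at 30.7 FPKM in the DRB-released library and 41.0 FPKM in the control, with 20.1 FPKM in MII, 33.1 in PN5, 5.06 in early 2-cell and 159.9 and 135 in ICM. Nop56 was thus lower by the size rule and Nop58 was not.

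Of the box H/ACA proteins only Nhp2 was lower. Nhp2, a core RNA-binding protein of the particle, was at 19.3 FPKM in the DRB-released library, against 64.2 FPKM in the control, with 23.7 FPKM in MII, 20.5 in PN5, 9.63 in early 2-cell and 415 and 543 in ICM. Gar1, which helps substrate RNA enter and leave the enzyme, was at 17.3 FPKM in the DRB-released library and 12.6 FPKM in the control, with 9.31 FPKM in MII, 9.12 in PN5, 3.85 in early 2-cell and 8.82 and 9.71 in ICM. Nop10, a small core protein that binds Dkc1, was at 37.9 FPKM in the DRB-released library and 31.7 FPKM in the control, with 9.82 FPKM in MII, 8.88 in PN5, 2.1 in early 2-cell and 395 and 540.1 in ICM. Gar1 and Nop10 thus lay slightly above control, opposite in sign to Nhp2. The pseudouridine synthase Dkc1, the enzyme of these particles, was nearly equal at 38.9 FPKM in the DRB-released library and 40.1 FPKM in the control. Its other values were 27.7 FPKM in MII, 43.6 in PN5, 7.99 in early 2-cell, and 83.4 and 68.4 in ICM. Nolc1, a nucleolar chaperone of snoRNPs, was at 14.3 FPKM in the DRB-released library, against 35.5 FPKM in the control, with 39.9 FPKM in MII, 48.6 in PN5, 21.7 in early 2-cell and 32.5 and 32.2 in ICM.

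The abundant nucleolar proteins had similar levels in both late 2-cell libraries. Npm1, a chaperone of histones and ribosomal proteins, was at 51.8 FPKM in the DRB-released library and 51.8 FPKM in the control, with 175 FPKM in MII, 117 in PN5, 86.2 in early 2-cell and 588 and 506 in ICM. Ncl, which binds the precursor RNA, was at 31.7 FPKM in the DRB-released library and 35.6 FPKM in the control, with 35.4 FPKM in MII, 52.4 in PN5, 8.61 in early 2-cell and 105 and 64.0 in ICM. Counted by class, 8 of 27 small-subunit, 5 of 15 large-subunit and 4 of 8 snoRNP factors were lower, and 0 of 2 for Npm1 and Ncl. Over all genes 9.99% were lower.

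The level in MII oocytes, taken from a library that enters neither side of the DRB comparison, was used to group the members by how much message the egg had stored. Genes were kept at a mean of 5 FPKM or more over both late 2-cell libraries. Among members below 10 FPKM in MII, 6 of 15 were lower in the DRB-released library, or 40.0%, against 18.1% of 3273 genes of the same band, with a median difference of -0.91 for members and -0.26 for all genes of the band. Between 10 and 30 FPKM in MII, 5 of 16 members were lower, against 9.05% of 2430 genes, with medians of -0.71 and -0.08. At 30 FPKM or more in MII, 6 of 21 members were lower, against 6.19% of 2279 genes, with medians of -0.67 and -0.04. The members' median lay below that of all genes in each band, also among members with a large stored pool. The 12 oocyte markers had a median difference of 0.03 and the 14 measured 2-cell markers one of -0.84. The part of the oocyte and 2-cell RNA in these results was not tested.

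**Figure D4:**
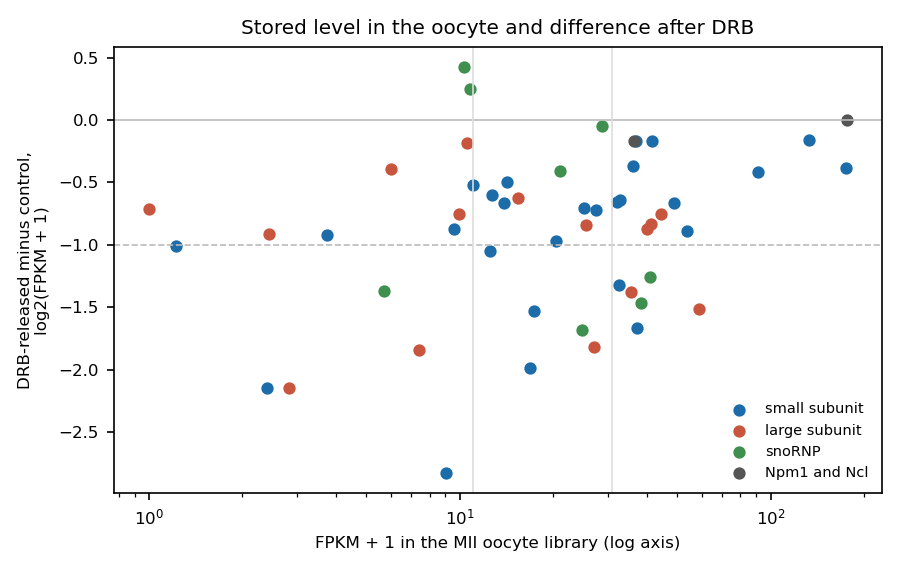
Difference between DRB-released and control late 2-cell embryos in log2(FPKM + 1), against FPKM + 1 in MII oocytes on a log axis, for the 52 assembly factors, coloured by class. Vertical lines mark the limits of 10 and 30 FPKM in MII, and the dashed line marks the size rule. Tbl3, Nob1 and Nop2 lie lowest, all below 10 FPKM in MII, whereas Bms1 and Riok1 lie far right at -0.38 and -0.16.

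The comparison of control late 2-cell embryos with PN5 zygotes sets the level of each factor against its level in the zygote. It does not separate inherited from newly made RNA. By the size rule, 14 of 52 members were higher in control late 2-cell embryos and 10 were lower, against 30.5% and 17% of 13022 genes. The median difference was -0.07 for the members and 0.28 for all genes. The members' shares in either direction, 26.9% and 19.2%, were thus near the background. The stage and the DMSO culture of the control embryos cannot be told apart here.

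Members lower in the control late 2-cell library than in PN5 were Mphosph10, Utp18, Bms1, Riok1, Noc4l, Rrp1b, Gnl2, Brix1, Ftsj3 and Npm1. The difference was -3.73 for Bms1 and -2.78 for Riok1, so that PN5 held 14.1 times the control level of Bms1 and 7.02 times that of Riok1. Noc4l, in yeast a partner of Nop14 in small-subunit export, was at 7.81 FPKM in the DRB-released library, 10.8 FPKM in the control and 44.8 FPKM in PN5, with 90.1 FPKM in MII, 25.9 in early 2-cell and 57.5 and 60.7 in ICM. Noc4l was high in MII, low at late 2-cell and high again in ICM. Mphosph10, the scaffold of the Mpp10 module, was at 21.2 FPKM in the DRB-released library, 23.9 FPKM in the control and 56.4 FPKM in PN5, with 35.8 FPKM in MII, 14.0 in early 2-cell and 29.9 and 20.5 in ICM. For Utp18 the difference was -1.84 and for Ftsj3 -1.80, with the values given above.

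The large-subunit factors of this group were Rrp1b, Gnl2, Brix1 and Ftsj3. Brix1, which in yeast helps place early ribosomal RNA domains of the large subunit, was at 11.4 FPKM in the DRB-released library, 21.8 FPKM in the control and 73.5 FPKM in PN5, with 39.1 FPKM in MII, 17.7 in early 2-cell and 66.3 and 72.3 in ICM. Gnl2, a GTPase that takes part in export of the large subunit, was at 7.52 FPKM in the DRB-released library, 14.1 FPKM in the control and 38.7 FPKM in PN5, with 40.3 FPKM in MII, 5.21 in early 2-cell and 41.7 and 31.6 in ICM. Rrp1b, a nucleolar protein of large-subunit assembly, was at 3.75 FPKM in the DRB-released library, 6.34 FPKM in the control and 17.2 FPKM in PN5, with 14.4 FPKM in MII, 4.12 in early 2-cell and 8.65 and 4.56 in ICM. Brix1 and Gnl2 stood above their control level in both ICM libraries, whereas Rrp1b lay on either side of it.

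Members higher in the control late 2-cell library than in PN5 were Rrp9, Tbl3, Wdr3, Rrp12, Nol11 and Nob1 of the small subunit, Nop2, Nop16, Bop1, Rrs1 and Ebna1bp2 of the large subunit, and the snoRNP proteins Fbl, Nhp2 and Nop10. The largest differences were 4.26 for Nop2, 4.10 for Nol11 and 3.88 for Nop16. Nol11 was at 26.8 FPKM in the control and 0.62 FPKM in PN5, and Rrs1, which loads the 5S particle onto the large subunit in yeast, at 27.0 FPKM in the control and 1.27 FPKM in PN5. In DRB-released late 2-cell embryos against PN5, 6 members were higher and 22 lower, against 29.4% and 17.7% of 13489 genes, with a median of -0.72 for the members and 0.27 for all genes. For Nop2 the difference from PN5 was 2.12 in the DRB-released library and 4.26 in the control, and for Tbl3 it was 0.26 in the DRB-released library and 3.08 in the control. For Bms1 it was -4.11 in the DRB-released library and -3.73 in the control. Both comparisons share the PN5 library, and the control library also enters the DRB comparison.

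**Figure D5:**
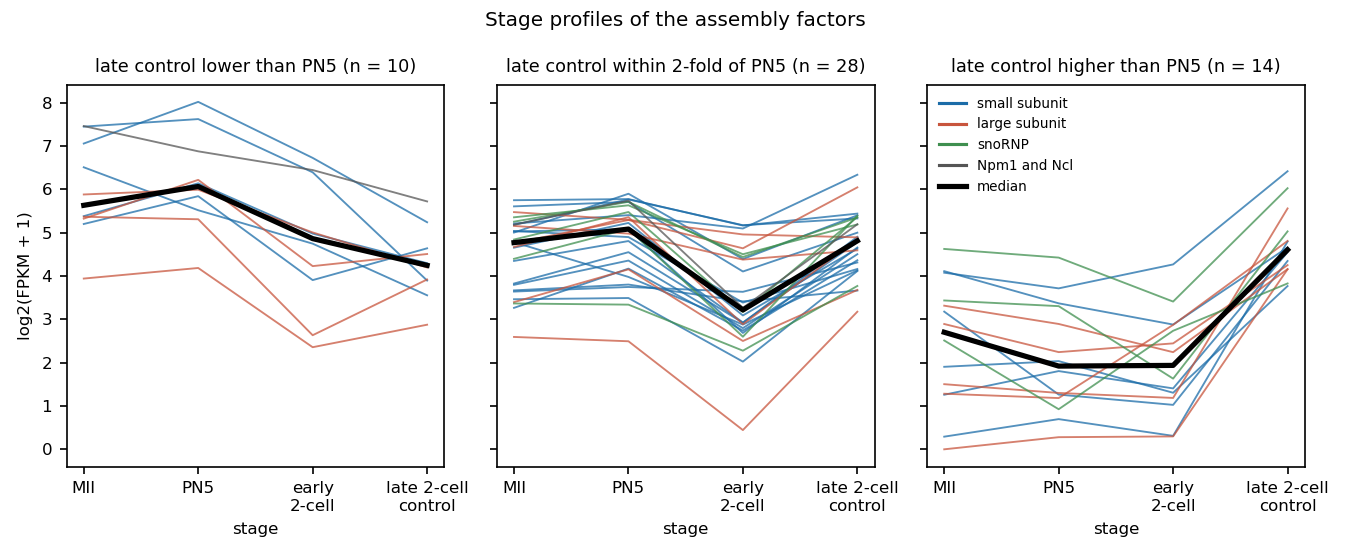
Level of each assembly factor, as log2(FPKM + 1), in MII, PN5, early 2-cell and control late 2-cell libraries, in 3 panels by the size and direction of the control minus PN5 difference, with the black line giving the median. The median of the 28 members within the size rule passes through a low at early 2-cell, and the 14 members higher in the control include the lowest levels in MII.

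The MII, PN5 and early 2-cell libraries come before the late 2-cell stage. Their total RNA can hold both stored and newly made transcripts, which were not separated here. By the size rule, 11 of 12 measured 2-cell markers were higher in early 2-cell than in MII. In PN5 against MII, 0 members were higher and 2 were lower, Tbl3 and Fbl, against 8.77% and 9.23% of 10711 genes. The median difference was 0.12 for the members and 0.24 for all genes. In early 2-cell against MII, 1 of 50 measured members was higher, Rrs1, and 25 were lower, against 4.02% and 28.8% of 10675 genes, with medians of -1.01 for the members and -0.58 for all genes. The members with the lowest values were Gnl2 at -2.74, Wdr75 at -2.34, and Tbl3 and Wdr12 at -2.15 and -2.15. As deposited, genes at 5 FPKM or more in both libraries had a median log2 ratio of -0.57. With that median set to 0, 14 of 50 members were lower, against 15.0% of all genes. Bms1 and Brix1 were then no longer lower by the size rule, at -0.49 and -0.55.

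In control late 2-cell against early 2-cell embryos, 33 of 52 members were higher and 3 were lower, against 49.6% and 8.62% of 13126 genes, with medians of 1.45 for the members and 0.99 for all genes. In early 2-cell against PN5 embryos, 2 members were higher and 29 lower, against 6.75% and 39.2% of 10837 genes. These differences span separately normalized tables, and genes at 5 FPKM or more in both libraries had a median log2 ratio of 0.60 in the first of them and -0.87 in the second.

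The median of the 8 snoRNP members was 103 and 89.7 FPKM in ICM, against 37.7 FPKM in control late 2-cell embryos. This class was split: Fbl, Gar1 and Nolc1 lay below the control in both ICM libraries. Over all genes at 1 FPKM or more in a library, the median was 9.84 and 8.54 FPKM in ICM and 8.92 FPKM in the control. The 15 large-subunit members had medians of 32.9 and 26.2 FPKM in ICM, against 18.1 FPKM in the control. Taking the mean of both ICM libraries against control late 2-cell embryos, 16 of 52 members were higher and 6 lower, against 25% and 47.8% of 13515 genes, with medians of 0.48 for the members and -0.88 for all genes. By class, 3 of 27 small-subunit, 7 of 15 large-subunit and 4 of 8 snoRNP factors were higher, as were Npm1 and Ncl. Both ICM libraries were above the control for 29 members and below it for 17, a count that was not made over all genes. On the mean of both ICM libraries, 38.5% of the members and 62.8% of all genes lay below the control. The ICM minus control difference was 3.82 for Nop10, 3.37 for Npm1, 2.87 for Nhp2, 2.45 for Mrto4 and 2.35 for Noc4l. Gar1, the remaining protein of the box H/ACA particle next to Dkc1, Nhp2 and Nop10, stayed at 8.82 and 9.71 FPKM in ICM, against 12.6 FPKM in the control. The members lower in ICM were Rrp9, Utp20, Riok1, Rrp12, Nol10 and Nol9. Developmental stage, cell number and the polyadenylated RNA protocol cannot be told apart in this comparison.

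Further genes of the pathway, listed from general knowledge of ribosome assembly, were examined beside the members. The lists were chosen with earlier results of these data known, so they are not an independent check. In the DRB-released library 42 of 103 were lower than in the control and 1 was higher, against 9.99% and 5.57% of all genes, with median differences of -0.89 for these genes and -0.05 for all genes. By list, 52.9% of the 34 other small-subunit genes were lower, 38.1% of the 42 other large-subunit genes, 33.3% of the 12 snoRNP assembly genes and 26.7% of the 15 exosome and RNA-trimming genes. In control late 2-cell against PN5, 34 of 102 were higher and 15 lower, near the background of 30.5% and 17% of all genes. Dcaf13, of the small-subunit processome, was at 6.55 FPKM in the DRB-released library, against 24.4 FPKM in the control. The RNA helicases Ddx49 and Ddx54 were at 3.72 and 6.88 FPKM in the DRB-released library, against 14.6 and 36.0 FPKM in the control. These and the genes that follow were named for having the largest decreases of their lists. Wdr74, of the large-subunit pathway, was at 4.95 FPKM in the DRB-released library, against 21.6 FPKM in the control. The snoRNP assembly factors Znhit3 and Nufip1 were at 9.77 and 8.19 FPKM in the DRB-released library, against 35.9 and 29.0 FPKM in the control. Exosc5 and Exosc10 belong to the exosome, which trims ribosomal RNA ends. They were at 4.86 and 12.2 FPKM in the DRB-released library, against 15.1 and 28.8 FPKM in the control. Their list did not move as one: 10 of its 15 genes lay below control, the highest difference was 0.88, and its summed level was 1380 FPKM in the DRB-released library and 889 FPKM in the control.

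The uncertainty of shared reads was checked by gene position in GRCm38, a build other than that of the files, for names only. Of the members, 11 overlap another protein-coding gene, among them Riok1 with Cage1 and Nop56 with Idh3b, and 6 hold snoRNA genes within their span. Another 5 members, Nop14, Wdr36, Riok2, Nol11 and Heatr1, overlap only a noncoding RNA gene or a pseudogene. Mrto4 and Fbl have a named pseudogene. Without these 3 kinds, 34 members remained, which still include the snoRNA hosts Wdr43, Nop58 and Ncl. Of the 34, 10 were lower in the DRB-released library, against 9.99% of all genes measured, with a median difference of -0.69. Pseudogenes were found only by overlap or by a name built on the member's symbol. The 34 are therefore not shown to be free of shared reads.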

How the data were processed

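Expression tables were deposited in FPKM per gene symbol. Genome build mm9 and the tools TopHat2 2.1.1, Cufflinks 2.1.1 and CASAVA 1.8 are listed, with no role for each, per the submitters' processing notes. Whether counting used strand, and how multi-mapped reads were handled, is not given in the sources used. The MII table's column bears a name that a chromatin sample also bears; it was taken as the MII total RNA library because the table is listed with that sample. Of 116 samples, 7 RNA libraries were used and 109 chromatin samples were not analysed here. No value column lacked a sample (0 columns).

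Differences were computed on log2(FPKM + 1), with a pseudocount of 1 FPKM, for genes at 1 FPKM or more in either library. They were counted at 1 or more in size, on all genes. Read depth could not be recovered: among genes below 0.3 FPKM in the late 2-cell pair, at most 9 of 580 shared a ratio. The computation was tested on simulated data, with Python 3.11.15, pandas 2.3.3, numpy 2.4.6 and matplotlib 3.10.9. Alternatives were another pseudocount, filter, scaling and size rule, and leaving out either ICM library.

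Members and lists were chosen with earlier results of these data known. Members given in every library were, per class, the 4 lowest and 2 highest differences after DRB at 10 FPKM or more in either library. In the small- and large-subunit classes the 2 highest were also decreases. The rule also took the 3 highest on average per class, those lower in control late 2-cell than in PN5, and Npm1 and Ncl. Mrto4, Gnl3 and Nop58 were given in addition to this rule. Promoter windows came from RefSeq (GRCm38.p6), with 43 of 53 members matched.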

Additional observations from a re-analysis of the deposited data

How the results depend on the processing

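No paired analysis was possible because each total RNA group held 1 library. The DRB-released against control count of 17 lower members was kept within 1.5 times under each scaling, filter and pseudocount tried, with a median of the members between -0.81 and -0.66, and 15 of those 17 members were lower in all of these; Utp3 and Nol11 were not, at -0.96 and -0.91, once the median log2 ratio was set to 0. With a size rule of about 1.5-fold in place of 2-fold, 36 members were lower in the DRB-released library than in the control, against 22.0% of all genes, and 10 were higher in the DRB-released library than in PN5, against 40.8% of all genes. With the median log2 ratio set to 0, 14 members were lower in early 2-cell than in MII, against 15.0% of all genes. Leaving out ICM library 1 gave 15 members higher in ICM than in control late 2-cell embryos, against 24.5% of all genes. Leaving out ICM library 2 gave 19, against 26.0% of all genes. In the 5 comparisons recomputed (DRB-released against control and against PN5, control against PN5, early 2-cell against MII, and ICM against control), no called member turned its direction under any alternative tried. The calls of PN5 against MII, early 2-cell against PN5 and control late 2-cell against early 2-cell were not recomputed. Unknown read depth gives no counting error for any total RNA value, and 1 library per group gives no replicate error.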
